A study of Mus musculus with 62 samples.

Results

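Hearts of mice carrying a melanoma that does not cause wasting were compared between week 8 and week 2 after tumour cell injection. The members are the 5 libraries labelled NCAC at 8 weeks and the 5 labelled NCAC at 2 weeks, chosen by label alone, which makes 10 of the 62 libraries of the series. The series measured whole-heart RNA at weeks 2, 4, 6 and 8 in mock-injected animals (Con) and in animals that received melanoma cells, either non-cachectic (NCAC) or cachectic (CAC). Beside the 10 NCAC libraries, the comparisons used the 5 Con libraries at each of weeks 2 and 8, the 5 NCAC libraries at each of weeks 4 and 6, and 5 CAC libraries at week 2 and 7 at week 8. All animals were female, with an age of 2 months in every label and in the design text at injection. By the week labels the groups lay 6 weeks apart. The labels give the strain as C57BL6/J, whereas the design text names NCI Ath/nude mice, a strain that lacks a thymus and so most T cells. The labels do not name the melanoma cells, and CAC and NCAC animals received different cells as well as differing in wasting. The protocol calls the libraries biological replicates and the titles number the hearts, whereas no day, batch or hour of collection is given, so p-values rest on the spread among the libraries as given.

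Cachexia is the wasting of muscle and fat seen with some tumours, and in the heart it is known for thinning of the muscle and for a switch of contractile, metabolic and acute-phase genes. A tumour that does not cause wasting serves as the control for tumour burden, and its change over time, set against that of mock-injected animals, shows how far the heart alters with tumour and time alone. Cardiac stress is commonly read from the natriuretic peptide genes, the fetal myosin and actin genes and the matrix genes, and muscle wasting from 2 ubiquitin ligase genes, Fbxo32 and Trim63.

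Expression was deposited as TPM, which are shares, and was rescaled by the median of ratios and analysed as log2(rescaled TPM + 1). A log2 difference on that scale understates the change of genes of low level. A gene was called where limma's Benjamini-Hochberg adjusted p was below 0.05 over all 12541 genes tested. Mitochondrially encoded transcripts held 57.3% ± 1.61 of TPM at week 2 and 57.2% ± 1.06 at week 8 (SD, n = 5 each), a difference within the spread of the libraries (2-sided exact permutation p = 0.849, adjusted over 2 tests 0.849). Haemoglobin genes held 0.312% ± 0.0902 and 0.368% ± 0.19 (2-sided exact permutation p = 0.635, adjusted 0.849). The smallest p this test can give is 0.00794. Among the 10 libraries NCAC week 8 replicate 3 lay farthest from the others of its group, at a root mean square distance of 0.284 against 0.188 to 0.258 for the other 9. The cardiomyocyte marker list of 12 genes summed to 43412 to 47400 rescaled TPM at week 2 and 43338 to 56904 at week 8. Markers of other tissues were low but not absent. The 12 melanocyte and melanoma markers summed to 18.1 to 19.97 rescaled TPM at week 2 and 18.3 to 27.9 at week 8, with Tyr listed at 0 in all 10 libraries, and Dct, a pigment enzyme, averaged 1.22 and 2.78. The 12 lung and thymus markers, with Cldn18 at 0 throughout, summed to 1.80 to 2.79 at week 2 and 2.15 to 8.90 at week 8. NCAC week 8 replicate 3 held the highest value of both sums. In Con hearts, which received no tumour cells, the melanocyte and melanoma sum ranged from 16.4 to 18.6 at week 2 and from 19.5 to 20.9 at week 8. The lung and thymus sum ranged there from 1.73 to 2.62 and from 1.58 to 2.53. The part of such tissue in the results was not tested.

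No gene was called between week 8 and week 2 in the NCAC hearts: 0 of 12541 genes rose and 0 fell by limma's test (0%). At an unadjusted p below 0.05 there were 1016 genes (8.10%), 521 higher and 495 lower at week 8. The lowest limma adjusted p was 0.123, shared by Tmem144 and Nod1. The 95% interval of the difference lay inside ±1 on the log2 scale for 12299 genes (98.1%) and inside ±0.5 for 11148 genes (88.9%). For the other 242 genes the interval reached 1. On this scale a 2-fold change of a gene of low level is less than 1, so these counts do not bound the fold change of such genes. The median difference of all genes was 0.01. The ranges of the 2 groups did not overlap for 216 genes (1.72%).

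**Figure D1:**
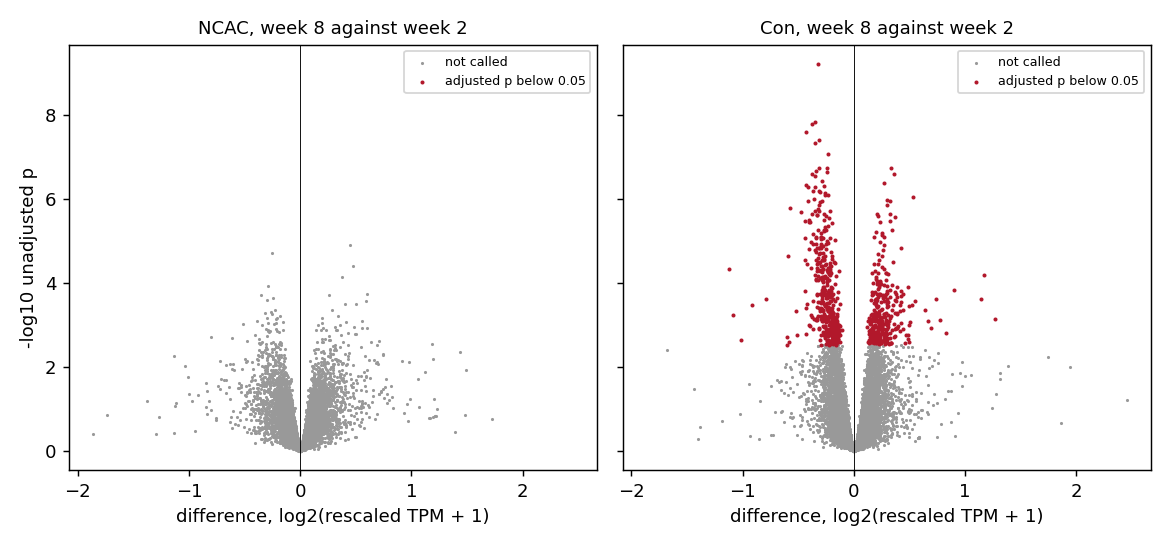
Each point is 1 of 12541 genes; the x axis is the week 8 minus week 2 difference in log2(rescaled TPM + 1) and the y axis is -log10 of limma's unadjusted p, for NCAC (left) and Con (right), with 5 libraries a group. No point is coloured as called for NCAC, and 752 are for Con.

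The 10 genes higher and 10 lower at week 8 with the smallest unadjusted p are named here, and 0 of these 20 were called. Among the 10 with higher values, Tmem144 encodes a protein of several membrane spans. It lies on chromosome 3 at 79812564 to 79852773, minus strand (GENCODE M21 on mm10). Its rescaled TPM was 26.5, 26.5, 23.9, 20.1 and 24.2 in the 5 week 2 libraries and 42.5, 33.4, 32.6, 27.3 and 32.2 in the 5 week 8 libraries. All 5 week 8 values of Tmem144 were above all 5 week 2 values, a log2 difference of 0.45 (SE 0.09, limma adjusted p = 0.123).

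Rhd, the Rhesus blood group protein of red cells (chromosome 4 at 134864536 to 134896172, plus strand), stood at 7.76, 6.21, 8.19, 6.93 and 7.73 at week 2. At week 8 Rhd stood at 10.3, 8.94, 13.7, 10.2 and 10.4 rescaled TPM, again without overlap, a log2 difference of 0.48 (SE 0.11, limma adjusted p = 0.166). Sfrp1, a secreted modulator of Wnt signalling on chromosome 8 (23411502 to 23449632, plus strand), ranged from 3.57 to 5.23 at week 2 and from 5.47 to 7.36 at week 8, with a log2 difference of 0.50. Mal, a membrane trafficking protein found in myelin and lymphocytes, ranged from 4.26 to 6.26 and from 7.08 to 11.7 rescaled TPM. The Con hearts had a log2 difference of 0.48 in Mal, against 0.60 in NCAC. The remaining higher genes were Chd2, a chromatin remodeller, Rpp25, a subunit of ribonuclease P, Slc6a17, an amino acid transporter of synaptic vesicles, Baiap2l1, Cuedc1 and Rnft1. Their log2 differences lay between 0.19 for Rnft1 and 0.59 for Rpp25. Baiap2l1 overlaps Bri3, Rnft1 overlaps Rps6kb1 and Chd2 overlaps 1810026B05Rik in the annotation, as Ankrd13a overlaps 4930515G01Rik and Klhdc3 overlaps Mea1, and strand use in the counting is not given in the sources used here.

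Among the 10 genes with lower values at week 8, Nod1 encodes a cytosolic sensor of bacterial cell wall fragments (chromosome 6 at 54923949 to 54972612, minus strand). Nod1 stood at 12.1, 11.8, 11.1, 11.9 and 11.8 rescaled TPM at week 2 and at 9.98, 10.2, 8.37, 9.73 and 10.2 at week 8. No value of Nod1 was shared between the weeks, and the log2 difference was -0.26 (SE 0.05, limma adjusted p = 0.123). Ankrd13a, a ubiquitin-binding protein of membrane receptor traffic, stood at 16.2, 14.4, 14.9, 14.7 and 14.6 at week 2 and 12.6, 11.9, 11, 12.5 and 12.4 at week 8. Its log2 difference was -0.29 (SE 0.07, limma adjusted p = 0.306). Smarcd2, a subunit of the SWI/SNF chromatin remodelling complex, ranged from 9.42 to 10.4 and then from 7.33 to 8.70.

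Grb10, an imprinted adaptor that dampens insulin receptor signalling, ranged from 20.3 to 24.7 rescaled TPM at week 2 and from 14.6 to 19.6 at week 8. Il17rd, an inhibitor of fibroblast growth factor signalling, stood at 2.09 ± 0.0401 and 1.65 ± 0.109 (SD, n = 5). The other lower genes were Lztr1, an adaptor that marks RAS proteins for degradation, Klhdc3, Stx2, a syntaxin of vesicle fusion, Lrrk1 and Cxx1c. Their log2 differences lay between -0.18 for Lztr1 and -0.36 for Cxx1c.

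The ranges of the weeks did not overlap in 16 of the 20 named genes, where 1.72% of all genes did so, but the genes were chosen for their p. Tmem144 averaged 24.3 ± 2.63, 31.5 ± 3.24, 29.1 ± 2.89 and 33.6 ± 5.54 rescaled TPM at weeks 2, 4, 6 and 8 (SD, n = 5 each). Nod1 averaged 11.7 ± 0.36, 11 ± 0.583, 10.8 ± 0.599 and 9.69 ± 0.761. The comparison of week 6 with week 4 shares no library with that of week 8 with week 2, and in it 10 of the 20 genes had the same sign. Of the 1016 genes with an unadjusted p below 0.05, 50.7% had the same sign at week 6 against week 4, and 50.6% of all genes did.

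**Figure D2:**
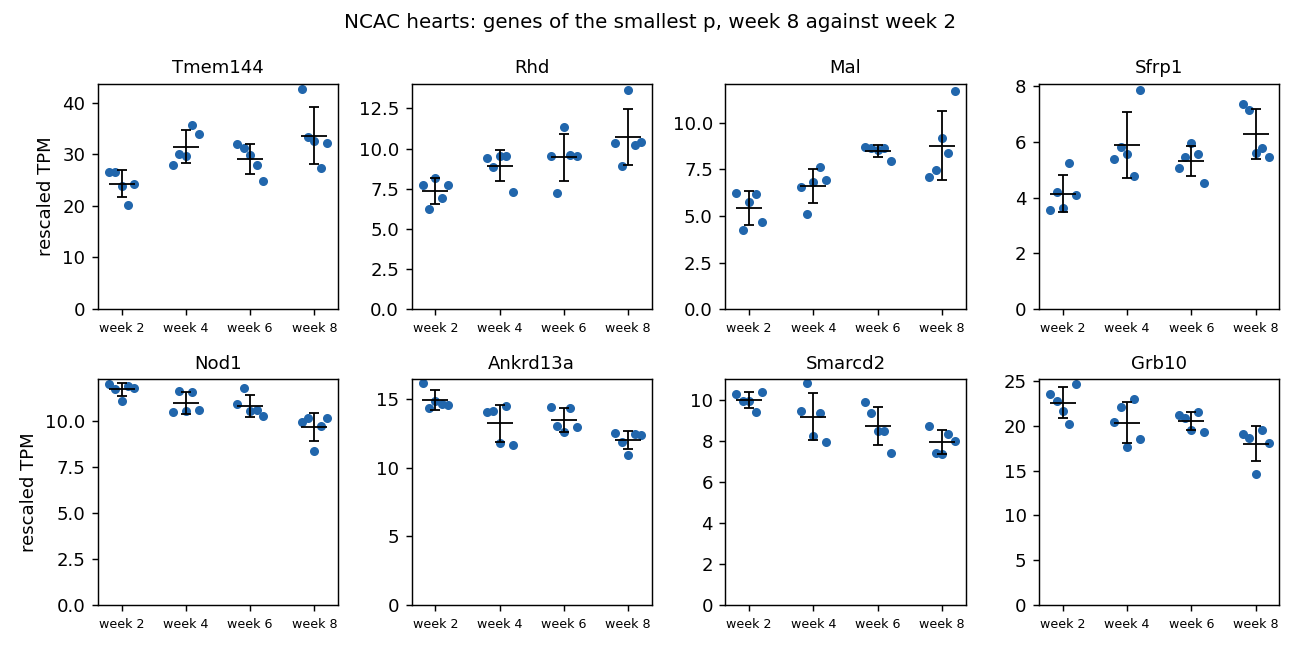
Rescaled TPM of 8 of the 20 named genes in the 20 NCAC libraries by week; points are libraries, the dash is the mean and the bar is 1 SD (n = 5). Tmem144, Rhd, Mal and Sfrp1 lie higher and Nod1, Ankrd13a, Smarcd2 and Grb10 lower at week 8 than at week 2, the weeks by which the genes were chosen.

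The steps between successive weeks gave 1 call in all. Between weeks 2 and 4, 0 genes were called by limma (0%) and 474 had an unadjusted p below 0.05, and between weeks 4 and 6, 0 (0%) and 331. Between weeks 6 and 8, 1 gene was called (0.00797%), Gm7293, annotated as a processed pseudogene, higher by 0.96 at week 8 (SE 0.16, limma adjusted p = 0.00306), with 515 genes at an unadjusted p below 0.05. That call was lost without NCAC week 6 replicate 1 or without NCAC week 8 replicate 3. Gm7293 was lower at week 6 than at week 4 by 0.36 and stood only 0.55 above week 2 at week 8 (limma adjusted p = 0.338).

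Differences over 1 on the log2 scale were few. Of 29 genes with a log2 difference over 1 in size, 2 had ranges that did not overlap, where 1.72% of all genes did so. The 29 were picked by size from these same values, and the 2 were named after their values were seen. Slc41a3, a mitochondrial magnesium transporter, averaged 14.8 rescaled TPM at week 2 and 36.4 at week 8, a log2 difference of 1.19 (SE 0.42, limma adjusted p = 0.478). In Con hearts Slc41a3 ranged from 14.4 to 53.1 at week 2 and from 16.4 to 81.7 at week 8. Adh1, an alcohol and retinol dehydrogenase, averaged 17.8 and 8.49, a difference of -1.01 (SE 0.41, limma adjusted p = 0.581), and in Con it ranged from 3.49 to 10.1 and from 4.06 to 15.3. The list past 1 also held Rps26 and its pseudogene copy Rps26-ps1, with differences of 1.72 and -1.86 in opposite directions, and 6 predicted genes named between Gm13691 and Gm13698. Reads of near-identical copies such as Rps26 and Rps26-ps1 can be split between them by the counting, so single values of these are uncertain. The 6 predicted genes all had higher values at week 8, by 1.16 to 1.22, and the cause was not tested.

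Genes of cardiac stress showed no called change. Nppa, which encodes atrial natriuretic peptide, stood at 176, 59.1, 262, 432 and 527 rescaled TPM at week 2 and at 28, 548, 595, 401 and 191 at week 8. The 2 weeks of Nppa overlapped almost completely, with a log2 difference of 0.04 and a 95% interval from -1.77 to 1.85, so that a change of 2-fold in either direction lay inside it. Nppb, the brain natriuretic peptide gene, stood at 69.1, 111, 152, 150 and 173 at week 2 and at 166, 403, 254, 116 and 211 at week 8. Its difference of 0.75 (SE 0.38, limma adjusted p = 0.629) overlapped between weeks and had a 95% interval from -0.02 to 1.52.

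The myosin genes were measured more tightly. Myh6, the adult myosin heavy chain of the mouse heart, stood at 6496 ± 610 rescaled TPM at week 2 and 6998 ± 586 at week 8 (SD, n = 5), a difference of 0.11 with a 95% interval from -0.12 to 0.34. Myh7, the fetal form, differed by 0.12 (interval -0.10 to 0.34), with NCAC week 8 replicate 3 at 473 and the other 9 libraries between 351 and 390. The actin genes Acta1 and Actc1 differed by -0.14 and -0.10, and the stress-responsive titin partner Ankrd1 by -0.09. Acta1 ranged from 335 to 727 at week 2 and from 197 to 1287 at week 8. The fibrillar collagen genes Col1a1 and Col3a1 differed by -0.10 and -0.05. NCAC week 8 replicate 3 had 6.85 of Col1a1 and 8.55 of Col3a1, below the other 9 libraries, and without it their differences were 0.25 and 0.40.

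The ubiquitin ligase genes of muscle atrophy gave narrow intervals. Fbxo32 stood at 35, 38, 35.7, 51.8 and 51.4 rescaled TPM at week 2 and at 51.7, 40.7, 46.3, 57.3 and 46 at week 8, a log2 difference of 0.20 (95% interval -0.21 to 0.60). Trim63 stood at 114, 121, 120, 127 and 133 and at 140, 152, 149, 140 and 114, a difference of 0.17 (interval -0.12 to 0.46). Both genes overlapped between weeks, and neither interval reached 1. The acute-phase gene Serpina3n ranged from 1.30 to 3.40 at week 2 and from 1.78 to 4.95 at week 8, and Lcn2, an iron-binding protein of inflammation, from 0.775 to 2.43 and from 0.56 to 1.98.

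Pdk4, a brake on glucose oxidation, stood at 118, 89.1, 130, 233 and 51.1 at week 2 and at 166, 186, 305, 178 and 176 at week 8. The week 8 libraries of Pdk4 lay above 4 of the 5 week 2 libraries, with a log2 difference of 0.83 (SE 0.42, limma adjusted p = 0.626). In the mock-injected hearts Pdk4 differed by 0.82. The fatty acid transporter gene Cd36 ranged from 646 to 719 at week 2 and from 714 to 999 at week 8, a difference of 0.26 (limma adjusted p = 0.369). In the list of fatty acid oxidation genes with PPAR targets, of 36 tested 0 were called and 27 had a positive difference, with a median of 0.07.

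Clock genes are described together because the ranges of Per2 and Cry1, alone among those tested, did not overlap between weeks. Over all genes 1.72% had ranges that did not overlap. These values were seen before the clock genes were chosen, except for the panel genes Arntl, Dbp and Per1. Per2, a repressor of the clock, stood at 16.8, 16.2, 12.3, 13.7 and 16.1 rescaled TPM at week 2 and at 8.64, 3.87, 7.94, 10.6 and 7.64 at week 8. Cry1, its partner, stood at 11.3, 10.1, 7.88, 8.25 and 8.71 and at 5.31, 3.16, 7.76, 7.46 and 4.46. The weeks did not overlap in either gene, with log2 differences of -0.92 (SE 0.46, limma adjusted p = 0.616) for Per2 and -0.67 (SE 0.25, limma adjusted p = 0.491) for Cry1. In Con hearts Per2 ranged from 2.30 to 14.8 at week 2 and from 2.11 to 19.3 at week 8, so the NCAC values at week 8 lay inside the Con range.

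Arntl, the clock activator also called Bmal1, ranged from 0.275 to 0.79 at week 2 and from 0.628 to 4.22 at week 8, a difference of 0.96 (SE 0.53, limma adjusted p = 0.664). Nr1d1, the clock repressor Rev-erb alpha, ranged from 15.9 to 34.3 and from 33.8 to 72.8, a difference of 0.99. Dbp, an output gene of the clock, overlapped between weeks with a difference of 0.11, and Per1 with a difference of -0.19. Of the 20 clock genes tested, 0 were called and 9 were positive. The hour of collection is not in the labels, and its part in these values was not tested. The SE of these genes comes from all 12 groups of the fit, in which clock genes varied widely within groups.

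Glucocorticoid-responsive genes leaned lower at week 8, with 16 of 21 negative, a median of -0.19 and 0 called. Fkbp5, a chaperone induced by glucocorticoids, stood at 9.22, 16.1, 7.24, 4.23 and 7.04 at week 2 and at 4.17, 3.67, 8.04, 3.77 and 2.66 at week 8. NCAC week 8 replicate 3 was the highest of its group in Fkbp5 as in Pdk4. Zbtb16, a transcription factor induced by glucocorticoids, ranged from 23.1 to 58.6 and from 6.77 to 33.1, a difference of -1.13 (SE 0.64, limma adjusted p = 0.681).

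Over 46 gene lists, 0 had a called member in the NCAC comparison, where 0% of all genes were called. Medians of the log2 difference over the 46 lists lay between -0.32 and 0.41, beside 0.01 for all genes tested, of which 53.1% were positive. The sarcomere list had 18 of 22 genes positive with a median of 0.09, the nuclear-encoded respiratory chain 37 of 48 with a median of 0.04, and ribosomal proteins 38 of 40 with a median of 0.06. Without NCAC week 8 replicate 3 the ribosomal list had 22 of 40 positive and the respiratory chain 22 of 48. Collagens had 15 of 18 negative, with a median of -0.08. NCAC week 8 replicate 3 was also the lowest library of the comparison in Col1a1 and Col3a1, and without it their differences were 0.25 and 0.40. The collagen and sarcomere lists were not taken without that library. The proteasome (17 of 30 positive, median 0.01) and autophagy (15 of 28 positive, median 0.00) stood close to all genes.

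**Figure D3:**
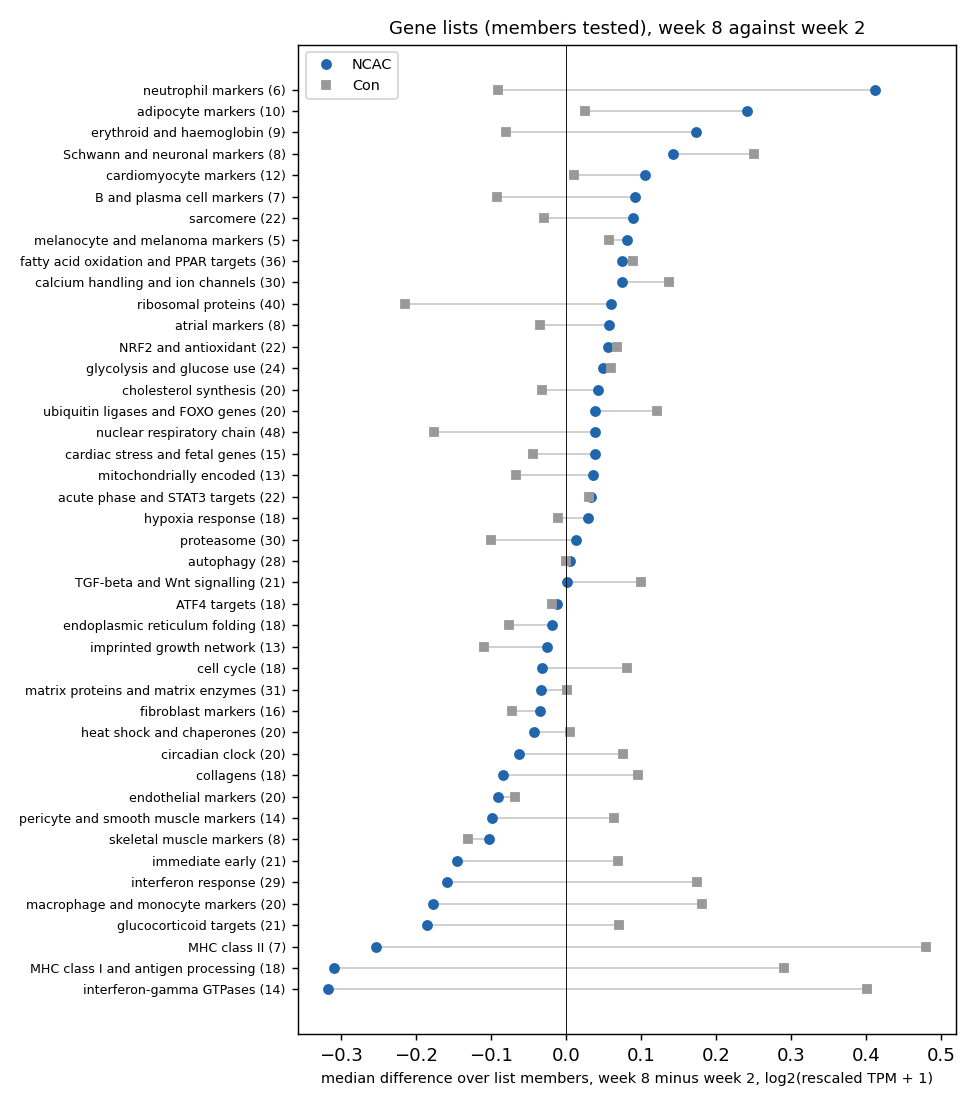
Median log2 difference between week 8 and week 2 over the tested members of each of the 43 lists with at least 5 tested genes, for NCAC (circles) and Con (squares); the number tested is in brackets. Immune lists lie lowest and neutrophil markers highest in NCAC, with ribosomal and respiratory chain lists lower in Con than in NCAC.

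The immune lists had some of the lowest medians, and they are described because their values stood out. All 18 genes of MHC class I antigen presentation had a negative difference, with a median of -0.31 and 0 called. Class I molecules display peptides to cytotoxic T cells, and their loading genes are induced by interferons. Of 14 tested GTPases induced by interferon gamma 13 were negative (median -0.32), of 7 class II genes 6 were negative (median -0.25), and of 29 genes of the general interferon response 24 were negative (median -0.16).

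B2m, the light chain of class I molecules, stood at 680, 131, 963, 399 and 893 rescaled TPM at week 2 and at 325, 459, 277, 226 and 401 at week 8. In all, 3 of the 5 week 2 hearts lay above every week 8 heart in B2m and 1 lay below all of them. The log2 difference of B2m was -0.61 (SE 0.37, limma adjusted p = 0.712). H2-K1, a class I heavy chain, ranged from 22.7 to 114 and from 31.5 to 70, and Tap1, the peptide transporter, from 1.11 to 6.64 and from 1.80 to 3.29. H2 heavy chain genes are near-identical copies, which makes any one value uncertain.

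Summed over the class I list, the 5 week 2 hearts had 1283, 402, 1662, 857 and 1548 rescaled TPM and the 5 week 8 hearts 712, 910, 688, 583 and 865. Igtp, an interferon-gamma-induced GTPase that overlaps Irgm2 in the annotation, stood at 37.4, 4.16, 56.4, 12.2 and 61.2 at week 2 and at 20.5, 17.4, 9.65, 6.84 and 14.3 at week 8. NCAC week 2 replicate 2 was the lowest of the 10 hearts in the class I sum, the GTPase sum and the class II sum, and replicates 1, 3 and 5 were the highest 3 in each. Without NCAC week 2 replicate 2 the class I median was -0.56 and the GTPase median -0.54, still with 0 called. The week 2 hearts spanned the whole range of the week 8 hearts in all 3 sums. Macrophage and monocyte markers had 15 of 20 negative (median -0.18), and their sum ranged from 267 to 377 at week 2 and from 222 to 363 at week 8. The T and NK cell markers summed to 10.8, 2.92, 11.5, 2.83 and 11.1 at week 2 and to 4.82, 6.11, 6.59, 5.40 and 4.79 at week 8, so replicates 1, 3 and 5 were high at week 2 in this sum as in the class I sum. Of these 18 markers 3 were tested, Nkg7, Gzma and Ccl5, with differences of -0.23, -0.32 and -0.36 and 0 called, and 15 stayed below 1 in all 10 libraries. The part of these cells in the class I values was not tested. In whole tissue fewer cells of a type and less RNA per cell cannot be told apart.

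**Figure D4:**
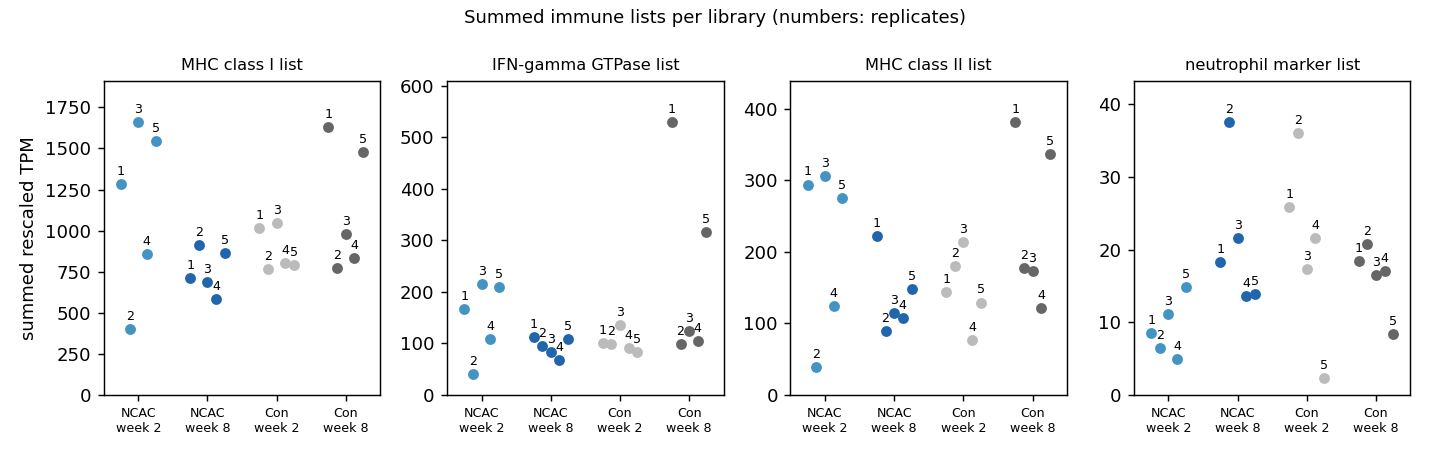
Summed rescaled TPM of 4 immune lists in each of the 10 NCAC and 10 Con libraries at weeks 2 and 8; each point is 1 library, numbered by replicate. NCAC week 2 replicate 2 is lowest and replicates 1, 3 and 5 highest among NCAC hearts in the first 3 panels, and Con week 8 replicates 1 and 5 are high in the same panels.

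Neutrophil markers leaned the other way. All 6 tested markers had a positive difference (median 0.41), 0 were called, and 8 of the 14 listed did not reach the filter. In a fit of the 10 NCAC libraries alone 2 were tested, of which 2 were positive (median 1.11) and 0 called. The other tested markers reached the filter only with libraries outside these 10. The count of 6 and its median therefore rest partly on genes of low level in these hearts. S100a8, a calcium-binding protein abundant in neutrophils, stood at 2.23, 1.54, 1.99, 0.427 and 3.32 at week 2 and at 4.82, 10.7, 5.63, 3.78 and 3.23 at week 8. Only the lowest week 8 heart overlapped week 2 in S100a8, and the log2 difference was 1.18 (SE 0.38, limma adjusted p = 0.414). S100a9, its partner, ranged from 3.15 to 8.29 and from 6.96 to 21.6, a difference of 1.06 (limma adjusted p = 0.581). The 14 markers together summed to 4.87 to 14.8 at week 2 and 13.6 to 37.6 at week 8, and 10 of them stayed below 1 in all 10 libraries. In Con hearts the same sum ranged from 2.35 to 36.1 at week 2 and from 8.31 to 20.7 at week 8.

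Adipocyte markers had 9 of 10 positive differences (median 0.24) and 0 called. In a fit of the 10 NCAC libraries alone 6 were tested, of which 5 were positive (median 0.14). The 16 listed markers summed to 1938 to 2163 rescaled TPM at week 2 and 1940 to 2787 at week 8, so the weeks overlapped. Fabp4, also on the endothelial list, and Lpl, also on the fatty acid list, made up most of that sum. Fabp4 averaged 787 and 818 and Lpl 1075 and 1232, so the sum says little of the other markers. Cfd, the fat-cell serine protease adipsin, stood at 2.16, 0.604, 2.27, 0.459 and 0.255 at week 2 and at 6.76, 2.56, 7.15, 9.59 and 0.875 at week 8. In all, 4 of the 5 week 8 hearts lay above all week 2 hearts in Cfd, a difference of 1.44 (SE 0.49, limma adjusted p = 0.462). Adipoq, the fat-cell hormone adiponectin, ranged from 0.0307 to 0.581 and from 0.162 to 1.39. Adipoq stayed below 1 in 9 of the 10 hearts. The part of fat tissue on the hearts was not tested.

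The mock-injected hearts served to set the NCAC change against time alone. Between week 2 and week 8 Con hearts had 318 genes that rose (2.54%) and 434 that fell (3.46%), together 6.00%, against 0 in NCAC hearts. Ranges did not overlap for 7.03% of genes in Con. Without Con week 2 replicate 1 the Con counts were 58 and 151, and without Con week 8 replicate 1 they were 183 and 284. The difference between the 2 changes was tested directly. The NCAC change exceeded the Con change in 155 genes (1.24%) and fell short of it in 47 (0.375%), together 1.61%. The median change of the 155 genes was 0.08 in NCAC and -0.28 in Con, and 143 of them were called in Con, where the change was the larger in size in 150 of the 155. Scaling by a total without mitochondrial and haemoglobin genes gave 667 higher and 239 lower in Con and 60 higher and 131 lower in the difference, so the balance of directions depended on the scaling.

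By the start of the symbol, 35 of 90 tested ribosomal protein genes were among the 155, beside 1.24% of all genes. So were 5 of 77 mitochondrial ribosomal protein genes and 22 of 95 respiratory chain genes. The match was by name alone, so the first class left out Rplp2 and could take in kinase genes with symbols such as Rps6kb1. The last class took in assembly factors such as Cox16 and Cox20. From the list of 40 ribosomal proteins 13 were called higher in this difference and 0 lower, with a median of 0.27, and from 48 respiratory chain genes 5 were called higher (Cox7b, Ndufa5, Ndufa1, Cox6b1 and Ndufb3), with a median of 0.22. Without NCAC week 8 replicate 3 these counts were 1 and 0, and without Con week 2 replicate 1 they were 2 and 0. With a per-library index of transcript length as a covariate both were 0, and the medians were 0.04 and -0.05. Rps18, a protein of the small ribosomal subunit, stood at 31, 31.1, 30.8, 31.8 and 36.1 in NCAC at week 2 and at 34.9, 35, 44.1, 35.7 and 31 at week 8. In Con Rps18 stood at 36.8, 29.5, 30.3, 30.4 and 31.2 at week 2 and at 22.4, 23.8, 25, 23.2 and 25.2 at week 8. The Con groups did not overlap in Rps18 and the NCAC groups did, and the change differed by 0.54 (SE 0.12, limma adjusted p = 0.0144). Separate ranges in either arm were a condition for naming Rps18, so the lack of overlap in Con is no support for the difference.

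Sec61g, a subunit of the protein channel of the endoplasmic reticulum, differed in its change by 0.58 (SE 0.09, limma adjusted p = 0.000475), with 0.15 in NCAC and -0.43 in Con. Rps27, Rpl39, Rpl35a and the calcium-binding gene S100a6 differed by 0.53 to 0.62. Among the lower genes, Trim25, a ubiquitin ligase of antiviral signalling, stood at 15, 12.9, 13.3, 12.2 and 13 in NCAC at week 2 and 10.3, 9.78, 12.2, 9.92 and 11.3 at week 8. Its change differed by -0.45 (SE 0.12, limma adjusted p = 0.0384), with -0.29 in NCAC and 0.16 in Con. Znfx1, an antiviral RNA helicase that overlaps Zfas1, differed by -0.44, and Smarca2, an ATPase of SWI/SNF that overlaps 4931403E22Rik, by -0.46. Nfic, a transcription factor that overlaps Gm16104, Eif4ebp2, which restrains translation initiation, and Slc9a2, a sodium and proton exchanger, differed by -0.46 to -0.55. Alternatives ended several of these calls. Trim25 lost its call in 18 of 30, S100a6 and Eif4ebp2 each in 20 of 30 and Slc9a2 in 21 of 29, whereas Sec61g and Znfx1 each lost it in 4 of 30. Of the 20 genes named for the NCAC comparison 3 were called in the difference, namely Cuedc1, Nod1 and Lrrk1, where 1.61% of all genes were. Their changes differed by 0.39 for Cuedc1 (limma adjusted p = 0.048), by -0.30 for Nod1 (limma adjusted p = 0.0323) and by -0.38 for Lrrk1 (limma adjusted p = 0.0295). The 20 were picked for their p in the NCAC change, which is part of this difference, so these calls are no support for them.

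The genes called in this difference differed in transcript length. The median summed exon length was 1043.5 bases for the 155 higher genes and 6594 for the 47 lower genes, beside 3233 for all tested genes. A per-library index was taken as the median deviation of 721 genes under 1000 bases minus that of 2952 genes over 5000 bases. The index lay between -0.206 and -0.133 in the 5 Con week 8 libraries, below all 15 libraries of NCAC and Con week 2 and NCAC week 8. It lay between -0.0035 and 0.0829 in NCAC at week 2 and between -0.0191 and 0.235 in NCAC at week 8, where replicate 3 was the highest. Con week 2 replicate 1 stood at 0.403, and the other 4 of its group between -0.0186 and 0.0331. The index differed between weeks in Con (2-sided exact permutation p = 0.00794, the smallest possible) and not detectably in NCAC (p = 0.333). These p-values are unadjusted. The index was chosen after the data were seen and is computed from these same libraries and genes, so the p in Con is no support for a difference by length.

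With the index as a covariate, chosen after the data were seen, 0 genes were called in the difference and 0 rose and 2 fell in Con. The index is computed from these same genes, so a difference between libraries by length and a change of short transcripts cannot be told apart. The difference also had 0 called genes on the deposited TPM without rescaling and in a fit of the 20 libraries alone, and 7 higher and 1 lower when Con week 4 replicate 2 was kept in. That library, left out of the main fit, had 89.1% mitochondrially encoded TPM where the other 61 had 49.3% to 61.1%. Without NCAC week 8 replicate 3 it had 22 higher and 2 lower, and without Con week 2 replicate 1 it had 23 and 5.

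**Figure D5:**
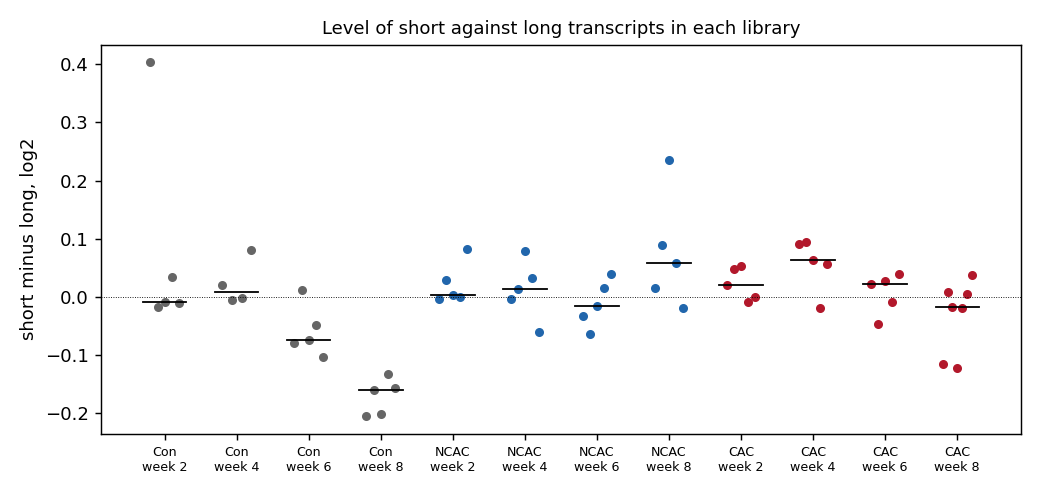
Short minus long index (log2) of each of the 61 fitted libraries by arm and week; points are libraries and the line is the group median. The 5 Con week 8 libraries lie between -0.206 and -0.133, Con week 2 replicate 1 lies at 0.403 and NCAC week 8 replicate 3 at 0.235.

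Promoters of these genes were read because ribosomal and respiratory chain genes often carry a site for ETS factors. The 2 shown were picked because they hold the motif, 1 for each direction of the difference, and neither gene is ribosomal or of the respiratory chain. Gabarapl2, an autophagy protein of the ATG8 family, was 1 of the 155 higher genes (0.33, limma adjusted p = 0.0487), and Eif4ebp2 was 1 of the 47 lower genes. Their calls were lost in 23 and 20 of 30 alternatives. The 250 bases before each RefSeq start (GRCm38.p6) are written 5′ to 3′ on the gene's strand, with the motif CCGGAAG or its reverse complement CTTCCGG in capitals. The windows are chr8:111940453-111940702 (plus strand) and chr10:61452670-61452919 (minus strand).
Gabarapl2: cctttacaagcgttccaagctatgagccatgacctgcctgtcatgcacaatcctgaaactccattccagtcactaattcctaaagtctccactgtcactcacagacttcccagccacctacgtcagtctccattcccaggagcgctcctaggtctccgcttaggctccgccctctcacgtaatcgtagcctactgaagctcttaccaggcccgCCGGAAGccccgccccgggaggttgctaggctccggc
Eif4ebp2: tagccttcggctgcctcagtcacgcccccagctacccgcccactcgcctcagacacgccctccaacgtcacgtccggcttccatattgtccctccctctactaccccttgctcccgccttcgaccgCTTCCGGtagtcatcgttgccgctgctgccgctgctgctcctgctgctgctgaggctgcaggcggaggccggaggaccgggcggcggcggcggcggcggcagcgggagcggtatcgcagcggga
The motif, searched on both strands, was present in 30 of the 114 higher genes with a promoter in the table (26.3%) and in 7 of the 40 lower genes (17.5%). It was present in 13.7% of the 9383 tested genes with a promoter and in 7.05% of all 27025 promoters. A match describes the letters only and is no measure of binding.

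The immune lists leaned in opposite directions in the 2 arms, with no member called in either. The class I list had 18 of 18 positive differences in Con (median 0.29) and 18 of 18 negative in NCAC. The difference of the changes had a median of -0.57 for class I and -0.62 for the GTPases, with 0 called in either. Without NCAC week 2 replicate 2, 4 of 18 class I genes (Tap1, Tap2, Tapbp and Psmb9) and 3 of 14 GTPases (Irgm1, Irgm2 and Igtp) were called lower, where 0.558% of all genes were. That heart was the lowest in these same sums, so these calls are no support for the difference. In Con, week 8 replicates 1 and 5 held class I sums of 1633 and 1478, above the other 8 Con libraries at 767 to 1045. Igtp in Con at week 8 stood at 190, 12.6, 20.9, 16.7 and 88.6.

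Set against the cachectic tumour, the NCAC change was small. The CAC change between weeks 2 and 8 exceeded the NCAC change in 2006 genes (16.0%) and fell short of it in 1995 (15.9%), together 31.9%, and these comparisons share the NCAC libraries with the one above. Serpina3n went from 11.6 ± 13.2 to 1571 ± 762 rescaled TPM in CAC (SD, n = 5 and 7) and from 2.01 ± 0.855 to 3.25 ± 1.22 in NCAC (SD, n = 5 each), a difference of the changes of 6.55 (limma adjusted p = 5.59e-07). Acta1 differed by -2.39, Actc1 by -1.32, Myh6 by -0.89 and Pdk4 by -2.03, all called, and Ankrd1 by 1.82 and Fkbp5 by 3.11, both called. Fbxo32 (-0.40) and Trim63 (-0.25) were not called in that difference, with limma adjusted p of 0.281 and 0.344. Of 22 acute-phase and STAT3 targets 19 had a CAC change called above the NCAC change, and their median change in NCAC was 0.03. Of 48 respiratory chain genes 43 had a CAC change called below the NCAC change. On the deposited TPM the counts over all genes were 3737 and 742. CAC week 8 replicate 3, kept in the fit, was unlike the others of its group. Haemoglobin genes held 3.29% of its TPM, against 0.0165% to 0.661% in the others. Its median-of-ratios factor was 0.961, against 1.12 to 1.22.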

How the data were processed

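Whole-heart RNA was sequenced with a stranded mRNA kit, per the labels' protocols, and mapped to mm10, per the submitters' processing notes. Aligner, counting tool and annotation: not given in the sources used here. TPM were deposited by the authors for 47643 gene symbols in 62 libraries. Libraries were rescaled by the median of ratios over 11699 genes and taken as log2(rescaled TPM + 1). A gene entered the test if 5 or more libraries reached 1 TPM (12541 genes). R 4.3.3 and limma 3.58.1 with a trended prior fitted 12 group means to 61 libraries, leaving out Con week 4 replicate 2 because all groups share 1 estimate of the spread. That library lay 0.832 (root mean square, log2) from the mean of its group, where the other 61 lay 0.173 to 0.433 from theirs, and had 8880 symbols at 1 TPM or more against 11234 to 12188. RNA quality was not tested. P-values were adjusted over all genes by Benjamini-Hochberg, with a threshold of 0.05. Shares and the length index were compared by exact permutation in Python 3.11.15 with scipy 1.17.1. Lengths came from GENCODE M21 (45090 symbols matched), which may differ from the annotation behind the TPM. Simulated data with known changes were used to test the fitting step.

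Genes were named by a rule: the 10 smallest p in each direction where fewer than 10 were called, leaving out predicted genes, a panel of 18 genes, the called members of lists described, and the 6 largest differences each way between the NCAC and Con changes with ranges apart in either arm. The members and lists were chosen with earlier results of these data known. Other genes named, such as members of the clock, immune, neutrophil, fat-cell, fatty acid and glucocorticoid lists, were chosen after their values were seen. Steps between low values put what 1 read is worth within 1.17-fold among the 10 libraries, and the depth in reads is unknown. No 2 libraries held identical values. Alternatives were the deposited TPM, a total without mitochondrial and haemoglobin genes, a pseudocount of 0.1, no filter or 5 TPM, all 62 libraries, array weights, a replicate block, the compared groups alone, and each library left out. The length covariate was added after the data were seen.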

Additional observations from a re-analysis of the deposited data

Results flagged for a closer look

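In 92 groups checked, 9 single values lay apart from the other libraries of their group, where chance gives about 1 in 20. Of these, 4 were of NCAC week 8 replicate 3. Its Nod1 was 8.37 rescaled TPM where the other 4 had 9.73 to 10.2, its Myh7 was 473 where they had 363 to 390, its Pdk4 was 305 where they had 166 to 186, and its Fkbp5 was 8.04 where they had 2.66 to 4.17. NCAC week 8 replicate 2 had 8.07 of Per1 where the others had 24.6 to 27.6. NCAC week 8 replicate 4 had 43.3 of Klhdc3 where the others had 36.9 to 38.3. NCAC week 2 replicate 1 had 16.2 of Ankrd13a where the others had 14.4 to 14.9, and NCAC week 2 replicate 2 had 2.43 of Lcn2 where the others had 0.775 to 1.00. Con week 2 replicate 1 had a short minus long index of 0.403 where the others had -0.0186 to 0.0331.

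The change between weeks differed between NCAC and Con by limma's test of the difference in 155 genes with a higher and 47 with a lower NCAC change. Among the named ones, the difference of the changes was 0.62 for S100a6, 0.59 for Rps27, 0.59 for Rpl39, 0.58 for Sec61g, 0.54 for Rps18 and 0.53 for Rpl35a. It was -0.55 for Slc9a2, -0.47 for Nfic, -0.46 for Smarca2, -0.46 for Eif4ebp2, -0.45 for Trim25 and -0.44 for Znfx1.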

How the results depend on the processing

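The NCAC comparison of weeks 8 and 2 had 0 called genes under every alternative except that, with single libraries left out, the count of higher genes ranged from 0 to 1 and that of lower genes from 0 to 0. The 1 was Tmem144, without NCAC week 8 replicate 4. The direction of the 20 named genes was the same in all 396 comparisons with an alternative. These genes were chosen for their p in the same libraries, so a change of sign was unlikely and this is no support for them. In week 6 against week 4, which shares no library with the comparison, 10 of the 20 had the same sign. Depth in reads is not known, and 5 libraries a group limit the precision. The causes of the changes below were not tested.

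On the deposited TPM, Con had 114 higher and 56 lower, NCAC against Con 0 and 0, and CAC against NCAC 3737 and 742, where the median of all genes shifted to 0.17. A total without mitochondrial and haemoglobin genes gave 667 and 239, 60 and 131, and 3362 and 1116, with a median of 0.11 in the last. Without a filter, NCAC against Con had 21 lower and week 8 against 6 had 2 higher. With Con week 4 replicate 2, Con had 69 and 152, NCAC against Con 7 and 1, CAC against NCAC 1209 lower and week 8 against 6 had 0 higher. Array weights gave Con 673 lower, NCAC against Con 294 and 132, week 6 against 4 2 lower, and week 8 against 6 6 and 2. The length covariate gave Con 0 and 2 and NCAC against Con 0 and 0. The compared groups alone gave Con 24 and 65, NCAC against Con 0 and 0, and week 8 against 6 0 higher.

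With single libraries left out, Con ranged from 58 to 356 higher and 151 to 451 lower, NCAC against Con from 22 to 289 and 2 to 129, CAC against NCAC from 1774 to 2360 and 1763 to 2353, and week 8 against 6 from 0 to 3 and 0 to 1. NCAC against Con had 56 and 9 without NCAC week 2 replicate 1, 58 and 13 without replicate 3, 93 and 17 without replicate 4, and 101 and 19, 22 and 2, 101 and 31, and 289 and 129 without NCAC week 8 replicates 2, 3, 4 and 5. It had 23 and 5 without Con week 2 replicate 1, 81 lower without replicate 5, 74 and 23 without Con week 8 replicate 1 and 18 lower without replicate 5.

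Of the panel genes, 29 of 358 comparisons changed sign, none of them called. Array weights gave Nppa -0.21, Acta1 0.041, Col1a1 0.024 and Col3a1 0.11, and the length covariate Nppa -0.23 and Col3a1 0.0497. With single libraries left out, Nppa ranged from -0.45 to 0.79, Acta1 from -0.51 to 0.17, Actc1 from -0.22 to 0.052, Ankrd1 from -0.31 to 0.21, Col1a1 from -0.30 to 0.25, Col3a1 from -0.29 to 0.40, Dbp from -0.025 to 0.25, Per1 from -0.29 to 0.13 and Lcn2 from -0.20 to 0.11.

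Replicate numbers did not pair the samples: the correlations of same-numbered NCAC libraries lay between -0.23 and 0.01 and those of Con between -0.12 and 0.29, and 0 of 5 and 2 of 5 libraries correlated best with their own number. With the replicate block, NCAC had 0 higher and 0 lower and NCAC against Con 141 and 39.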
